A study of Mus musculus with 6 samples.

Results

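Chemical synapses release transmitter from vesicles that dock at the active zone, a protein meshwork on the presynaptic membrane. Described here are 45 genes of this machinery and its partners, chosen as a fixed list of symbols and all found among the 24002 genes of the RNA-seq table: synapsins, vesicle membrane proteins, synaptotagmins, SNARE proteins, complexins, Rab3 GTPases and active zone scaffolds, with the neurexins, neuroligins and postsynaptic scaffolds that face them across the cleft. The list is therefore wider than vesicles and the active zone, since its adhesion and scaffold genes act in part on the postsynaptic side. R1, a mouse embryonic stem cell line, was grown with serum replacement (15%) and LIF, formed into embryoid bodies in hanging drops for 48 h and exposed to retinoic acid, and was sampled at day 6. The labels put its dose at 0.5 mM, a unit that is uncertain because such protocols commonly work in the micromolar range. RNA-seq of polyadenylated RNA covered 3 samples of this condition, and ATAC-seq, not analysed here, covered 3 more. There is no untreated or earlier group, so the values are levels at day 6 and show no change.

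In neurons, synapsins tether vesicles into a reserve pool, and Rab3 with its effectors brings them to the active zone. Vesicles fuse when VAMP on the vesicle pairs with syntaxin and SNAP25 on the plasma membrane, under the control of Munc13 and complexin, and synaptotagmin on the vesicle senses the calcium that triggers fusion. Many of these genes are silenced outside neurons by the repressor REST, which binds a DNA element called RE1, and transcripts of the machinery are known to appear before synapses form.

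Nearly all of these genes were expressed. Levels are given as FPKM, in which the fragments of a gene are divided by its transcript length and by the size of the library, so genes of different length can be set side by side. The word expressed is used where all 3 replicates reached 1 FPKM, which held for 44 of the 45 genes against 50.7% of all genes in the table. At 10 FPKM or more in every replicate stood 26 of the 45, or 57.8%, against 24.5% of all genes. The median of the 45 genes was 13.1 FPKM and that of all genes 1.31 FPKM. The list was chosen with earlier results of these data known, so these shares and the median can depend on which genes were listed. The means of the 45 genes ran from 0.714 FPKM for Syt9 to 115 FPKM for Rab3a. Bulk RNA gives the product of cell number and RNA per cell, so fewer cells of a type and less RNA per cell cannot be told apart.

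**Figure D1:**
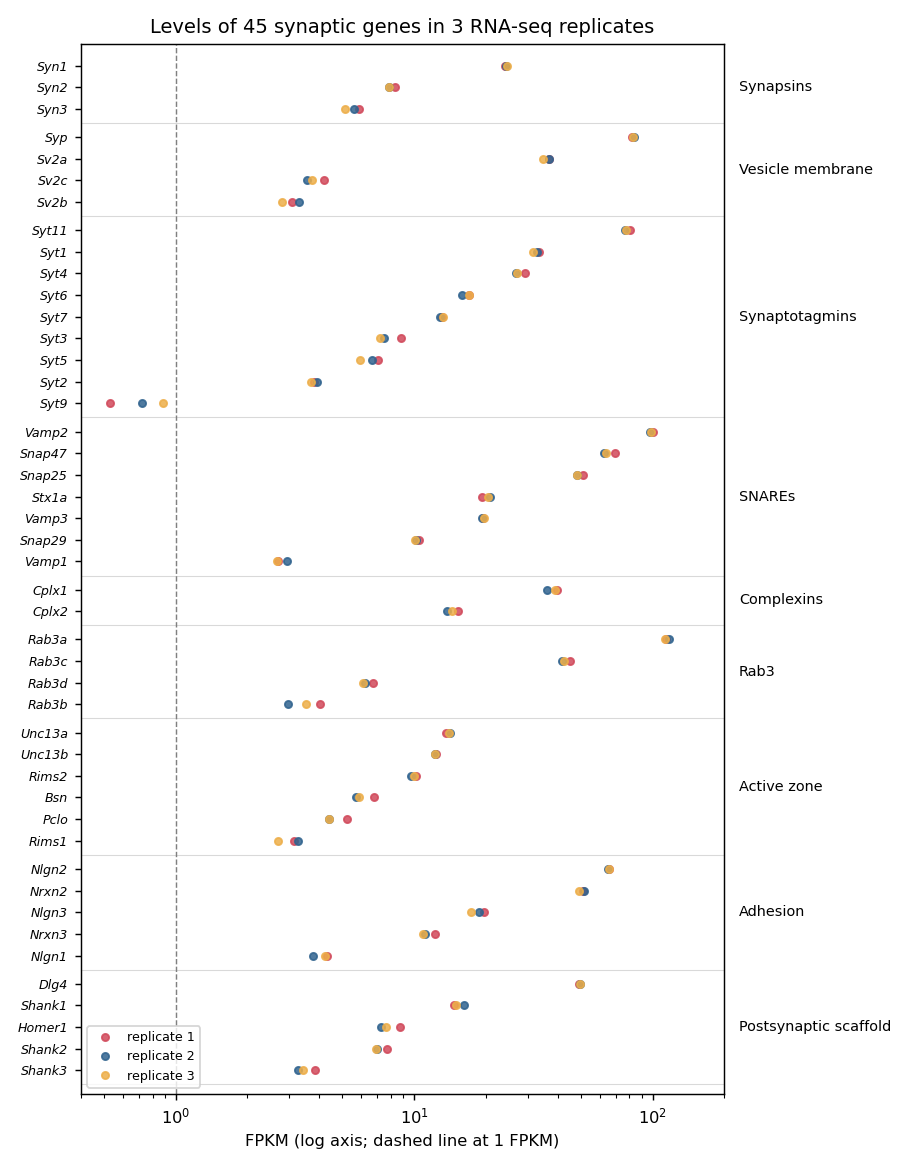
FPKM (log axis) of each of the 45 genes in replicates 1, 2 and 3, grouped by role and ordered by mean within a role, with a dashed line at 1 FPKM. Syt9 is the gene to the left of the line, at 0.529 to 0.888 FPKM, and Rab3a, Vamp2 and Syp lie farthest to the right.

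FPKM summed to 494246, 477760 and 524717 over all genes in replicates 1, 2 and 3. Read totals are not given. Judged by the spacing of low values, replicate 1 was sequenced 1.56 times as deeply as replicate 2 and 1.17 times as deeply as replicate 3, and replicate 2 was the shallowest. The labels do not say that the replicates came from separate cultures, and the spread between them may be technical. The embryoid bodies held neuronal, progenitor and other RNA. All 12 neuronal marker genes had 10 FPKM or more in every replicate, with summed levels of 3527, 3381 and 3354 FPKM in replicates 1 to 3, led by Tubb3. The 8 neural progenitor markers summed to 1423, 1395 and 1382 FPKM and the 8 extraembryonic endoderm markers to 394, 532 and 540 FPKM. Of the 6 astrocyte and oligodendrocyte markers, 3 were expressed, with Aqp4 at 0.0496 FPKM and Mag at 0.0742 FPKM. Neuroendocrine cells use much of the same release machinery, and 4 of their 6 markers were expressed, with Chga at 48.1 ± 0.415 FPKM (SD, n = 3), while Th stood at 0.556 FPKM and Dbh was listed at 0 in every replicate. Of 4 pluripotency markers 1, Zfp42, was expressed.

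The synapsins, which coat the vesicle and hold it in the reserve pool, were led by Syn1. Syn1 stood at 24.0, 24.3 and 24.6 FPKM in replicates 1, 2 and 3. Syn2 followed at 8.32, 7.88 and 7.82 FPKM and Syn3 at 5.86, 5.61 and 5.13 FPKM. The replicates of the 3 genes did not overlap, and Syn1 was 3.04 ± 0.137 times Syn2 and 4.41 ± 0.358 times Syn3 (mean ± SD of the ratio within a replicate, n = 3). Each synapsin gene lies across a Timp gene, which encodes an inhibitor of metalloproteases, and whether fragments were counted by strand is not stated, so the values of host and nested gene are uncertain. Timp3 stood at 33.0 ± 1.29 FPKM (SD, n = 3), above its host Syn3. Timp1 stood at 6.53 ± 1.60 and Timp4 at 0.817 ± 0.0895 FPKM, below their hosts Syn1 and Syn2.

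The Syn1 promoter is shown because it held a match to the RE1 element. In the RefSeq sequences of build GRCm38.p6, 33 of the 45 genes had a promoter window of 250 bases before and 50 bases after the start, some of them more than 1, which gave 48 windows. An RE1 consensus of 16 letters was searched on both strands with up to 1 mismatch, and 2 of these windows (4.17%) held it, against 1.01% of 32851 windows of all genes. They were those of Syn1 and of Vamp1. Vamp1 was the least expressed of the 3 VAMP genes here, and Vamp2 and Vamp3 had no window to search. The 250 bases before the start are printed 5′ to 3′ on the strand of the gene, with the match in capitals: Syn1 at chrX:20920919-20921168 on the minus strand, match at 20921134 to 20921149, and Vamp1 at chr6:125215331-125215580 on the plus strand, match at 125215368 to 125215383.
Syn1: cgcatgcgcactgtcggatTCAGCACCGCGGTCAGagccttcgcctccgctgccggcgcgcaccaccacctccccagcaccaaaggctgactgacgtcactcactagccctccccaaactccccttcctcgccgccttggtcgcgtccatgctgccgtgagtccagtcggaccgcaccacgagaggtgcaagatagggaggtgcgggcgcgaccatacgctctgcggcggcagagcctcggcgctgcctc
Vamp1: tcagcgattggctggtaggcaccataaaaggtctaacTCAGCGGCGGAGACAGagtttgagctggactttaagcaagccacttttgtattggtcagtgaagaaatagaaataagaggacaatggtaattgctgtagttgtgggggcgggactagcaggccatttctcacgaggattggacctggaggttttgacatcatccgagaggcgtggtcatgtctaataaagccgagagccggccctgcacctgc
Both matches lie on the strand of the gene, at positions -231 to -216 from the start in Syn1 and -213 to -198 in Vamp1. Rest, which encodes the repressor, was itself expressed at 3.71, 4.28 and 3.59 FPKM. With a match in each promoter, the level of Syn1 was 24.3 ± 0.294 FPKM and that of Vamp1 2.76 ± 0.156 FPKM (SD, n = 3). A match is a description of letters and shows no binding.

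Among the other vesicle membrane genes, Syp and Sv2a were high. Syp, which encodes synaptophysin, an abundant vesicle protein that binds VAMP2, stood at 81.9, 83.6 and 82.8 FPKM, the third highest mean of the 45 genes. The SV2 proteins are transporter-like glycoproteins of the vesicle. Sv2a stood at 36.7, 36.7 and 34.7 FPKM, whereas Sv2c (3.84 ± 0.329 FPKM; SD, n = 3) and Sv2b (3.05 ± 0.244 FPKM) were far lower. Sv2a was 11.8 ± 0.619 times Sv2b and 9.43 ± 0.800 times Sv2c.

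The synaptotagmins ranged from 0.714 to 78.2 FPKM, and the gene below the threshold was 1 of them. Syt1, Syt2 and Syt9 encode the calcium sensors of fast synchronous release. Syt1, the sensor of most forebrain synapses, stood at 33.5, 32.8 and 31.6 FPKM. Syt2, which serves this role in the hindbrain, the spinal cord and the neuromuscular junction, stood at 3.80, 3.92 and 3.69 FPKM, and Syt1 was 8.58 ± 0.226 times as high. Syt9 stood at 0.529, 0.725 and 0.888 FPKM. No replicate of it reached 1 FPKM, and its spread, 25.2% of its mean, was the widest of the 45 genes. The ratio of Syt1 to Syt9 was 48.1 ± 14.1 accordingly.

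The highest synaptotagmin was Syt11, which does not bind calcium, is known from cells other than neurons too and acts in membrane traffic. Syt11 stood at 80.4, 76.9 and 77.3 FPKM. Syt4, a related gene whose product sits on dense-core and other secretory vesicles, stood at 29.3, 26.7 and 27.1 FPKM, so Syt11 was 2.82 ± 0.0718 times as high. Syt6 (16.6 ± 0.653 FPKM; SD, n = 3) and Syt7 (13.1 ± 0.186 FPKM), the latter a slow sensor of asynchronous release and membrane repair, came next and did not overlap each other. Syt3 (7.82 ± 0.857 FPKM) and Syt5 (6.56 ± 0.581 FPKM) were lower. Syt11 was at least 9.14 times as high as either of them in every replicate.

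Of the SNARE genes, the vesicle partner was carried by Vamp2. Vamp2 stood at 101, 97.1 and 98.2 FPKM, the second highest mean of the 45 genes. Vamp1, which encodes the paralogue used at the neuromuscular junction and in parts of the hindbrain and spinal cord, stood at 2.68, 2.94 and 2.66 FPKM. Vamp3, also called cellubrevin and known from most cell types, stood at 19.4, 19.3 and 19.7 FPKM. The 3 genes did not overlap, and Vamp2 was 35.9 ± 2.43 times Vamp1 and 5.06 ± 0.105 times Vamp3.

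On the plasma membrane side, the neuronal genes were Snap25 and Stx1a. Snap25 stood at 51.2, 48.3 and 48.2 FPKM. The gene-level table does not separate its alternative exons, which switch during neuronal maturation. Snap47, which encodes a widely expressed relative, was higher, at 69.4, 62.8 and 63.6 FPKM, and all its replicates lay above those of Snap25 (ratio 1.32 ± 0.0269). Snap29, a SNARE of intracellular membranes and autophagy, stood at 10.3 ± 0.168 FPKM (SD, n = 3). Stx1a, which encodes syntaxin 1A, stood at 19.3, 20.8 and 20.5 FPKM, below Snap25 and Vamp2 in every replicate.

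Complexins clamp and promote the assembled SNARE complex. Cplx1 stood at 39.7, 36.1 and 39.2 FPKM and Cplx2 at 15.2, 13.8 and 14.4 FPKM. The genes did not overlap and Cplx1 was 2.65 ± 0.0574 times Cplx2. Outside the members, the retinal complexin genes were at the bottom of the table, with Cplx4 listed at 0 in every replicate and Cplx3 at 0, 0 and 0.0146 FPKM.

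The Rab3 GTPases, which mark vesicles for docking, held both the highest and some of the lowest levels. Rab3a, the main isoform of brain synapses, stood at 114, 117 and 113 FPKM. Rab3c stood at 45.1, 41.8 and 42.5 FPKM, Rab3d, known mainly from exocrine and other secretory cells, at 6.71, 6.25 and 6.12 FPKM, and Rab3b at 4.01, 2.96 and 3.52 FPKM. No replicate of these 4 genes overlapped another gene of the family. Rab3a was 2.67 ± 0.130 times Rab3c, 18.1 ± 0.905 times Rab3d and 33.4 ± 5.64 times Rab3b. Rab3b varied most between replicates among the expressed members, by 15.2% of its mean.

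The promoters of the highest and the lowest of the 45 genes are shown for their CpG dinucleotides, in capitals, because the gene below the threshold had the most of them. They are the 250 bases before the start of Rab3a, at chr8:70754453-70754702, and of Syt9, at chr7:107370540-107370789, both on the plus strand of GRCm38.p6. Rab3a has a second window in the RefSeq table, which is not printed.
Rab3a: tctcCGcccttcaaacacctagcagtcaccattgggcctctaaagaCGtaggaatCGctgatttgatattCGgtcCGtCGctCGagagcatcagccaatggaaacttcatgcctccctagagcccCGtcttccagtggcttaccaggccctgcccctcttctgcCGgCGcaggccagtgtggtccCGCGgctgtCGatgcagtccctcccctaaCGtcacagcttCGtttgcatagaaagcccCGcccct
Syt9: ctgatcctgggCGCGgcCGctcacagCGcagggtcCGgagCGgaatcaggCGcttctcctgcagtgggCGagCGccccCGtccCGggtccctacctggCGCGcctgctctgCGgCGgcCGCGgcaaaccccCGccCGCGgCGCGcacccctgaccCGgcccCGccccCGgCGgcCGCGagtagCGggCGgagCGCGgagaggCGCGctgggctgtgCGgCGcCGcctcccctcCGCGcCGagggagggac
These stretches hold 16 CpG in Rab3a and 40 in Syt9. Over the full windows of 300 bases, Syt9 had 49 CpG, the most of the 48 member windows, and the 2 Rab3a windows 18 and 22. The 48 member windows had a median of 17.5 CpG and a GC content of 61.7%, against 7 CpG and 52.7% in the 32851 windows of all genes. The members with the fewest CpG in a window were Sv2b and Nrxn3, which also have windows with up to 10 and 16.

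Active zone genes were expressed at moderate levels. Their 6 means lay between 3.03 and 13.9 FPKM, with a median of 8.04 FPKM against 20.2 FPKM for the 7 SNARE genes. Unc13a and Unc13b encode Munc13 proteins, which prime vesicles for fusion. Unc13a stood at 13.6, 14.1 and 14.0 FPKM and Unc13b at 12.3, 12.3 and 12.3 FPKM, so the replicates stayed apart although the ratio was only 1.13 ± 0.0228. Rims2 and Rims1 encode RIM scaffolds, which tie Rab3, Munc13 and calcium channels together. Rims2 stood at 10.2, 9.67 and 10.02 FPKM and Rims1 at 3.14, 3.27 and 2.69 FPKM. The giant scaffolds bassoon and piccolo were low and close to each other. Bsn stood at 6.78, 5.71 and 5.85 FPKM and Pclo at 5.25, 4.38 and 4.41 FPKM, with replicate 1 the highest for each gene.

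Neurexins on the presynaptic and neuroligins on the postsynaptic membrane bind each other across the cleft, and the highest genes here were Nlgn2 and Nrxn2. Nrxn2 stood at 51.2, 51.6 and 49.0 FPKM and Nrxn3 at 12.2, 11.1 and 10.9 FPKM, a ratio of 4.45 ± 0.234. Nlgn2, whose product is known from inhibitory synapses, stood at 65.6, 65.2 and 65.7 FPKM. Nlgn3 followed at 19.6, 18.7 and 17.3 FPKM, and Nlgn1, known from excitatory synapses, at 4.33, 3.78 and 4.23 FPKM. Nlgn2 was thus 3.54 ± 0.231 times Nlgn3 and 15.98 ± 1.11 times Nlgn1, with no overlap between replicates.

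Among the 5 postsynaptic scaffold members, Dlg4 stood far above the others. Dlg4 encodes PSD-95, the main scaffold of the excitatory postsynaptic density, and stood at 49.1, 49.8 and 49.4 FPKM. The Shank proteins lie deeper in that density. Shank1 stood at 14.7, 16.2 and 14.9 FPKM, Shank2 at 7.67, 6.96 and 6.92 FPKM and Shank3 at 3.82, 3.25 and 3.41 FPKM. Shank1 was 2.13 ± 0.202 times Shank2 and 4.40 ± 0.556 times Shank3. Homer1, which links Shank to glutamate receptors, stood at 8.71, 7.27 and 7.63 FPKM, in the range of Shank2.

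**Figure D2:**
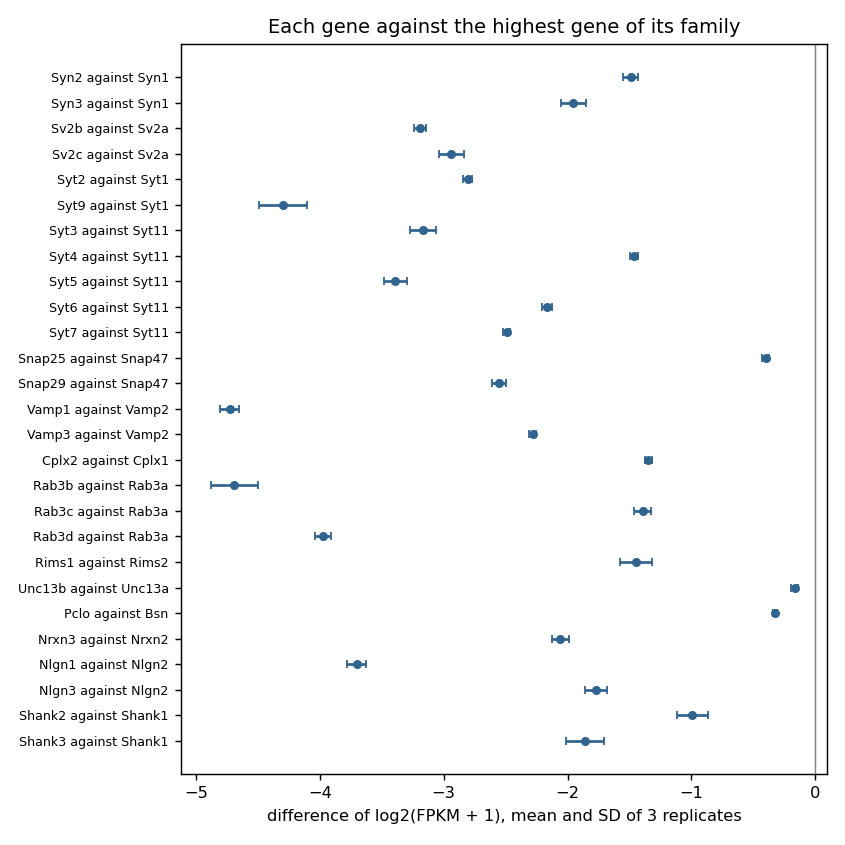
Difference of log2(FPKM + 1) between each gene and the highest gene of its family, as mean and SD over 3 replicates. The points nearest 0 are Unc13b, Pclo and Snap25, at -0.16, -0.32 and -0.40, and those farthest from it are Vamp1, Rab3b and Syt9, at -4.73, -4.69 and -4.30.

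In all families the highest gene was set against the others, which fixes the direction of the difference, and in each pair the difference was larger than the spread between replicates. An exact permutation test of 3 values against 3 cannot go below p = 0.1, two-sided, so no test was made and genes were set apart only by whether their replicates overlapped. In the order of all 45 means, the first 5 genes, Rab3a, Vamp2, Syp, Syt11 and Nlgn2, did not overlap their neighbours above. Of the 44 pairs of neighbours, 25 overlapped. Nlgn2 and Snap47 overlapped, as did Nrxn2, Dlg4 and Snap25 in sequence, and Cplx1 and Sv2a. Farther down, Stx1a, Vamp3 and Nlgn3 overlapped in sequence, as did Syt6, Shank1, Cplx2 and Unc13a, and Snap29 and Rims2. From Syn2 at 8.01 FPKM down to Vamp1 at 2.76 FPKM, each gene overlapped the next, except that all replicates of Pclo lay above those of Nlgn1. Vamp1 in turn lay above Syt9.

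The members listed here as known outside neurons as well, a list made by hand that may be incomplete, were not the lowest members. These 6 genes, Syt11, Snap47, Vamp3, Unc13b, Snap29 and Rab3d, were all expressed, with a median of 15.9 FPKM. Of the other 39 members 38 were expressed, with a median of 13.1 FPKM. The highest of these 39, Rab3a, Vamp2 and Syp, lay above Syt11 in every replicate.

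Other genes of the same pathways were mostly expressed too. Of 84 such genes, 77 (91.7%) were expressed, with a median of 10.4 FPKM. Of 20 genes of the release machinery 14 were expressed, among them Napa (29.6 ± 0.307 FPKM; SD, n = 3), which encodes a cofactor of SNARE disassembly. The 6 below the threshold were Syt12, Rab27b, Unc13c, Syt10, Cplx3 and Cplx4. All 10 further vesicle membrane genes were expressed, led by Sncg (116 ± 1.76 FPKM), a synuclein gene, and Scamp1 (36.3 ± 1.34 FPKM). All 16 vesicle recycling genes were expressed, led by the clathrin genes Clta (200 ± 6.63 FPKM) and Cltc (70.2 ± 1.06 FPKM), which every cell uses. All 18 further active zone genes were expressed, led by Apba2 (66.2 ± 1.65 FPKM), which encodes the adaptor Mint2, and Lin7c (59.5 ± 2.62 FPKM). Of 20 further adhesion and scaffold genes 19 were expressed, led by Cadm1 (72.0 ± 1.10 FPKM) and Dlgap4 (70.5 ± 0.897 FPKM), while Lrrtm4, at 0.986 ± 0.0561 FPKM, did not reach the threshold in every replicate.

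**Figure D3:**
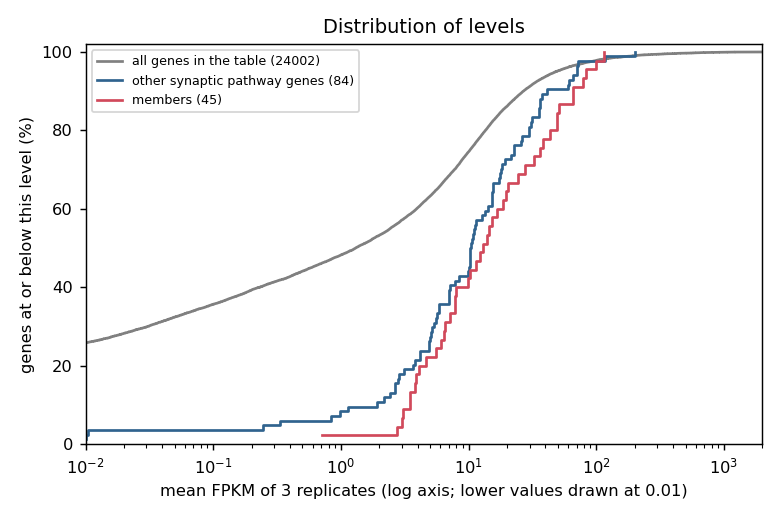
Share of genes at or below each mean FPKM (log axis; values under 0.01 drawn at 0.01) for the 45 members, the 84 other synaptic pathway genes and all 24002 genes. The curve of the members starts at Syt9 (0.714 FPKM) and crosses the middle at 13.1 FPKM, against 10.4 FPKM for the pathway genes and 1.31 FPKM for all genes.

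Members whose mean reached 10 FPKM varied little between replicates, and those with lower means varied more. Most members were highest in replicate 1. Among the 26 members whose mean reached 10 FPKM, the SD was 2.89% of the mean in the median, between 0.345% for Unc13b and 6.31% for Nlgn3, against 3.56% for all genes from 10 to 150 FPKM. Among the 18 with a mean from 1 to 10 FPKM it was 8.19%, against 6.60% for all such genes. Of the 44 members whose mean reached 1 FPKM, 28 were highest in replicate 1, against 36.3% of 12432 genes, 12 in replicate 2, against 33.7%, and 4 in replicate 3, against 30.0%. Lowest in replicate 1 were 6 members, against 36.6% of genes, in replicate 2 19, against 32.1%, and in replicate 3 19, against 31.3%. The 6 were Syn1, Syp, Stx1a, Unc13a, Dlg4 and Shank1. With the replicates scaled to the same upper quartile, 32 members were highest in replicate 1, against 42.0% of genes, and with the same sum of FPKM 25, against 30.7%. Of the 26 members whose mean reached 10 FPKM, 14 were highest in replicate 1, against 40.4% of such genes.

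The differences were small. On the scale of log2(FPKM + 1), and relative to the average of each gene, the members had a median deviation of 0.04 in replicate 1, -0.02 in replicate 2 and -0.03 in replicate 3. Those with the largest positive deviation in replicate 1 were Rab3b (0.16), Syt3 (0.16), Pclo (0.14), Homer1 (0.13) and Bsn (0.13), all with means under 10 FPKM. The 12 neuronal markers had deviations of the same sign, with median deviations of 0.05, -0.03 and -0.03 and 11 of 12 highest in replicate 1. The 8 neural progenitor markers had 0.03, 0.0017 and -0.04, with 5 of 8 highest in replicate 1. The 8 extraembryonic endoderm markers had the opposite sign, with -0.33, 0.14 and 0.17, and all were lowest in replicate 1. The part of cell composition, and of the greater depth of replicate 1, in the members' deviation was not tested. The 77 other pathway genes whose mean reached 1 FPKM had median deviations of 0.01, 0.0026 and -0.01.

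**Figure D4:**
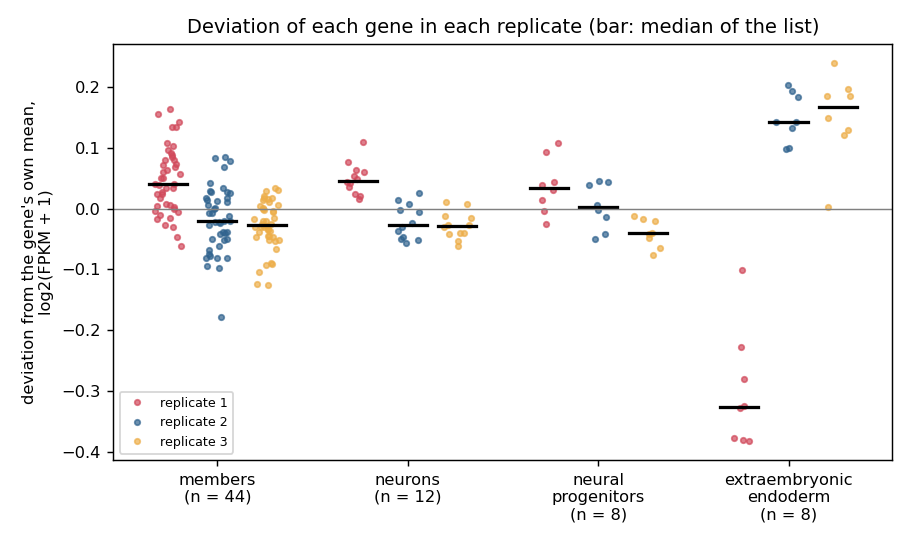
Deviation of each gene in log2(FPKM + 1) from its average over 3 replicates, for members, neuronal, neural progenitor and extraembryonic endoderm markers whose mean reached 1 FPKM, with a bar at the median of each list. The members' medians are 0.04, -0.02 and -0.03 in replicates 1 to 3, and the endoderm markers lie below 0 in replicate 1.

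Some further members share sequence positions with other genes, which limits their values where strand was not used in counting. In the RefSeq table of GRCm38.p6, used for neighbourhood only, 9 of the 45 genes overlap the span of a protein-coding gene that the RNA-seq table also holds. Beside the Timp genes, Syn1 overlaps Araf (59.9 ± 1.61 FPKM; SD, n = 3) and Syn3 overlaps Fbxo7 (5.25 ± 0.287 FPKM). Snap29 overlaps Pi4ka (8.05 ± 0.324 FPKM), Unc13b overlaps Fam214b (10.2 ± 0.947 FPKM) and Snap47 overlaps Jmjd4 (6.58 ± 0.201 FPKM). The partners of Syn2, Syt1, Syt3 and Shank1 were below 1 FPKM in every replicate.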

How the data were processed

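Polyadenylated RNA was measured in 3 samples and accessible chromatin in 3 samples of 1 condition; groups and replicate numbers come from the titles. The deposited expression table has no unit in its header, and its values were read as FPKM because the submitters' processing notes name Cufflinks, with Bowtie and mm9; versions, settings, strand use and scaling between libraries are not stated in those notes. The ATAC-seq regions were not analysed here, since they are in mm9 and no annotation of that build was at hand.

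Means, SDs and counts were computed with Python 3.11.15, pandas 2.3.3 and numpy 2.4.6, and the scripts were tested on simulated data. Deviations and family differences use log2(FPKM + 1), which understates differences of low genes, and ratios use FPKM. Relative depth is the most common ratio between libraries of values from 0.001 to 0.1 FPKM, within 0.004 on the natural log scale, taken as equal read numbers, which is an assumption; absolute depth is unknown, so no counting interval is given. An exact 0 can be a failed estimate and is only said to be listed at 0. Promoter sequences are from RefSeq, GRCm38.p6. No sequence window was at hand for 12 members: Rims2, Vamp2, Vamp3, Snap25, Nrxn2, Nlgn3, Syn3, Syt4, Syt5, Syt7, Shank1 and Shank2.

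The members and the lists were chosen with earlier results of these data known. Named genes are all members, the 2 highest other pathway genes of each role, the highest marker of a list and Rest; other genes, and the promoters of Vamp1, Rab3a and Syt9, were chosen after their values were seen. The values of some other pathway genes are not reported here. Alternatives were other thresholds, pseudocounts, scalings and filters, each replicate left out, and other numbers of mismatches.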

Additional observations from a re-analysis of the deposited data

How the results depend on the processing

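The number of expressed members stayed within 1.5 times of 44 under thresholds of 0.5 FPKM (45) and 5 FPKM (35), and was 44 under both scalings and without any replicate. The count of other pathway genes and the median FPKM of the members moved as little. The share of all genes at 0.5 and 5 FPKM was not computed, so the counts at these thresholds have no comparison. Counts by replicate depended on scaling. With the same sum of FPKM, which shifted replicates by 0.01, 0.06 and -0.07 (log2), 0, 2 and 42 members were lowest in replicates 1, 2 and 3, against 23.7%, 7.56% and 68.8% of all genes, 19 and 0 were highest in replicates 2 and 3, against 62.3% and 7.04%, the median deviation in replicate 2 reversed to 0.038 and that in replicate 3 was -0.092. With upper quartile scaling, 3 were lowest in replicate 1, against 31.0% of all genes, and 5 and 7 highest in replicates 2 and 3, against 23.2% and 34.8%. Among members whose mean reached 10 FPKM, a smaller set by construction, 14 were highest in replicate 1 and 11 and 9 lowest in replicates 2 and 3. Leaving out a replicate leaves a pair to rank. Members highest were then 31 to 35 in replicate 1, 13 to 24 in replicate 2 and 9 to 20 in replicate 3. Members lowest were 9 to 13, 20 to 31 and 24 to 35. For these counts, and for the 11 and 9 above, the share over all genes was not computed, so they have no comparison. RE1 matches with no mismatch were found in 0 of the 48 member windows, against 0.0639% of all windows. With up to 2 mismatches they were found in 9 of the 48 (18.75%), against 10.2% of all windows. With a pseudocount of 0.1, 21 of 27 family differences moved by more than their SD and 0 reversed. Proximity of ATAC-seq regions to the genes was not run. No paired analysis was possible because the RNA-seq samples form 1 group, so their numbers pair no groups; ratios between genes were taken within each replicate.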
